A study of Mus musculus with 12 samples.

Results

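The rows described here lie in the Hist1 cluster of mouse histone genes and were chosen by position alone. They are the rows of the deposited table on chromosome 13 (mm9) that overlap 21807000 to 22136000 or 23622000 to 23858000 and span under 3000 bases. The rule found 52 of 55418 rows, 24 in the first stretch and 28 in the second. RNA was sequenced in 12 samples of Six2-expressing cells sorted from mouse kidney at postnatal day 0, all carrying an R26R-tdTomato reporter. By their titles, 4 samples were control low, 4 mutant low, 2 control high and 2 mutant high expression. What was high or low in each is not stated by the titles, and the mutated allele and its driver are named in no sample label, although the series title names Eed, a Polycomb group member. Whether samples came from separate animals is not given in the labels, so p-values reflect the variation among these samples, possibly technical.

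Histones package DNA. H2A, H2B, H3 and H4 form the core of the nucleosome, and H1 binds the linker between nucleosomes. Most genes of this cluster are replication-dependent: they are transcribed mainly while DNA is copied, and their mRNAs end in a stem-loop in place of a poly(A) tail. The SMART-Seq kit used here primes cDNA from poly(A) tails, so the levels below are those of histone RNA that this priming captured, and may not follow the total histone mRNA of the cells. In developing kidney, Six2-expressing progenitors both divide and give rise to the epithelium of the nephron.

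The stem-loop is shown because it decides how such an mRNA ends. It was read from GENCODE M21 transcripts (GRCm38) as the 16-base string shared by the most Hist1 genes after the stop codon, and its capitals mark the 6 bases on each side that pair with each other.

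Hist1 stem-loop: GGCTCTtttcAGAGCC

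This exact string stood in 20 of the 41 Hist1 genes with at least 16 annotated bases after the stop codon. Of all 55341 genes in that annotation, 29 (0.052%) held it in a transcript, and 3 of the 29 were not named as histone genes. The search was of 1 strand, the transcript's own. These genes could not be paired with single rows, because the table gives UCSC identifiers and mm9 positions, and the reference tables hold neither. Rows are therefore given by position, as deposited, and not by gene name, and marker genes of the sorted cells were not checked.

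The spans of the rows can be set against the label. In GENCODE M21, the commonest coding length was 312 bases in Hist1 H4 genes (11 of 11), 381 in H2B (11 of 15), 393 in H2A (11 of 13) and 411 in H3 (9 of 9). Of the 52 rows, 24 (46.2%) spanned exactly one of these 4 lengths, with 8 rows at 312 bases, 10 at 381, 4 at 393 and 2 at 411. Elsewhere in the table, 8 of 10057 rows under 3000 bases did (0.0795%). An equal length is not an identification, and no row was named by it. Copies within a class are close: the median identity of a coding sequence to its nearest equal-length copy was 97.4% in H4, 98.4% in H2B, 98.8% in H3 and 99.0% in H2A. How the authors assigned fragments that match several copies is not given in the sources used here, so the split between copies is uncertain for every row.

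Most rows held little or no RNA. No fragment was found in any library at 19 rows. Another 21 had fragments but missed the level called measured here, 10 or more fragments in at least 4 libraries, and 12 rows reached it. Measured rows made up 3 of the 24 rows at a coding length of a core histone and 9 of the 28 at other spans. At the threshold, the last row inside was the 312-base row at 23673470 to 23673782, with 13, 14, 17 and 27 fragments in its 4 highest libraries. The first row outside, at 21845303 to 21845696, had 39, 31 and 16 fragments in 3 libraries and fewer than 10 in the other libraries. No row outside the measured set other than this one reached 10 fragments in a library, and their totals over all 12 libraries were at most 39. Around the span limit, the longest row taken in spanned 2977 bases and the shortest left out 3788. The 12 measured rows held 98.2% of the fragments in the cluster.

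The measured rows are numbered 1 to 12 by position, and each value below is in CPM, fragments per library scaled to a common total after TMM adjustment. Rows 1 to 4 lie in the first stretch. Row 1 runs from 21807631 to 21808012 (minus strand), row 2 from 21813966 to 21814347 (plus), row 3 from 21871751 to 21872423 (minus) and row 4 from 22132684 to 22133221 (minus). Rows 5 to 12 lie in the second. Row 5 runs from 23646900 to 23649877 (plus), row 6 from 23663268 to 23663883 (plus), row 7 from 23673470 to 23673782 (plus) and row 8 from 23712496 to 23714427 (minus). Row 9 runs from 23830675 to 23832236 (plus), row 10 from 23838602 to 23839070 (plus), row 11 from 23842956 to 23843462 (plus) and row 12 from 23853721 to 23854255 (minus). Rows 1 and 2 have the H2B coding length and row 7 that of H4.

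Row 11 (uc007put.1) was the most abundant, with 40.0% of all fragments in the cluster. Per kilobase of span it averaged 108 CPM over the 4 group means, against 14.4 at row 9, 13.9 at row 8 and 13.5 at row 6. The remaining measured rows ran from 1.60 to 12.8 CPM per kilobase. These per-length levels use the span, since the table gives no exons. With row 8, row 11 held 58.1% of the cluster's fragments, so sums over the cluster follow these rows.

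**Figure D1:**
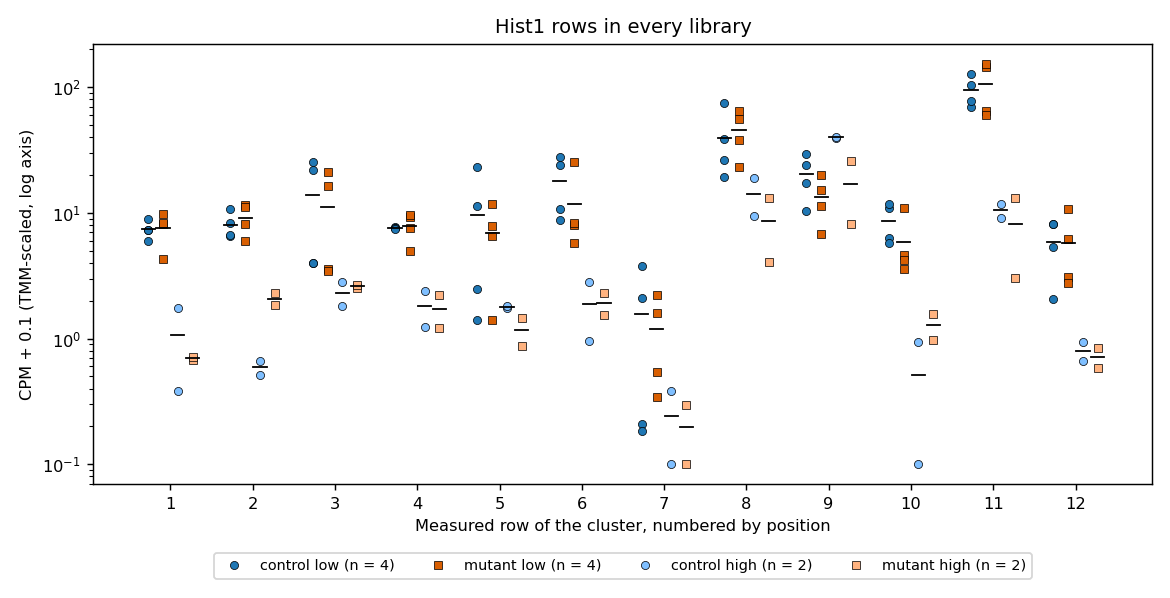
CPM plus 0.1 (log axis) of each measured row in each library, with circles for control, squares for mutant, dark symbols for low and pale symbols for high cells; short lines mark group means. At row 11 the 8 low libraries lie between 59.8 and 153 CPM and the 4 high libraries between 2.95 and 13.04 CPM, while at row 9 both control high libraries lie above the 4 control low ones.

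Libraries held 4549011 to 12365078 fragments. The control high libraries were among the shallowest (6249263 and 4549011) and had 4.51% and 10.3% of their fragments on the mitochondrial chromosome, against 0.494% to 1.96% elsewhere. The 4 high libraries held only 232 to 650 estimated fragments in the cluster, and the low libraries 1576 to 2669. In the high libraries only 3 measured rows (8, 9 and 11) had at least 10 fragments each time, and 3 (1, 7 and 12) never did.

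The clearest difference was between the populations: the histone rows were lower in high than in low cells, in control and in mutant kidneys. In control, the 52 rows summed to 312, 292, 178 and 174 CPM in low cells and to 75.5 and 76.0 CPM in high cells. In mutant, they summed to 298, 320, 175 and 144 CPM in low and to 62.8 and 28.6 CPM in high cells. No low library overlapped a high one. The low mean was 3.16 times the high mean in control and 5.12 times in mutant samples, and without row 11 the ratios over measured rows were 2.18 and 3.40. The mutant ratio rests on its 2 unequal high libraries: it was 8.20 with mutant high replicate 1 left out and 3.73 with replicate 2 left out. On plain library totals the control ratio was 4.32 and the mutant ratio 5.03, and the difference between the genotypes' ratios was not tested. The group means of the 40 rows outside the measured set stood in the same order, with a control low sum of 5.14 ± 3.68 CPM (SD, n = 4) against 1.57 ± 1.02 CPM for control high (SD, n = 2). Here the control libraries overlapped, with 8.07, 8.56, 1.945 and 1.97 CPM in low and 2.29 and 0.851 CPM in high cells. The row at 21845303 held 2.26 CPM of the control low mean. In mutant samples the 40 rows summed to 3.71 ± 2.12 and 0.967 ± 0.548 CPM. In sorted bulk samples, fewer cells carrying an RNA and less of it per cell cannot be told apart.

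By edgeR's quasi-likelihood test, 7 rows (1, 2, 4, 6, 10, 11 and 12) fell in the high cells of control kidneys and none rose. Of all loci tested, 27.0% were lower in that comparison and 3478 of 13749 were higher. In mutant cells the same 7 rows and row 8 were lower in high cells, against 13.2% of all loci. The 2 comparisons share no library. Only 13 of the 52 rows entered the fit, the 12 measured rows and the row at 21845303. The median log2 fold change of the 12 measured rows was -2.89 in control and -2.51 in mutant cells, where all loci had medians of -0.13 and -0.03. Rows that entered through their fragments in low libraries had to be higher there, so these counts and medians are a description and support no difference. The sums above are over all 52 rows and use no such filter.

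Row 11 stood at 104, 128, 69.7 and 78.1 CPM in control low and at 11.6 and 9.07 CPM in control high cells. Mutant low cells had 145, 153, 64.3 and 59.8 CPM and mutant high cells 13.04 and 2.95 CPM. Its low and high libraries were far apart in both genotypes, and the second mutant high library was the lowest of the 12. High against low, the log2 fold change was -3.19 (SE 0.62, edgeR adjusted p = 0.000838) in control and -3.70 (SE 0.63, edgeR adjusted p = 0.000615) in mutant cells. The mutant value was -5.18 with mutant high replicate 1 left out and -3.03 with replicate 2 left out, and in the latter fit row 1 (-3.67) fell further.

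Row 10 had the largest called fall in control cells when all libraries were fitted. It stood at 10.9, 11.6, 6.16 and 5.66 CPM in control low cells. In control high cells it held 4 fragments in 1 library, 0.832 CPM, and 0 in the other. The log2 fold change was -4.15 (SE 0.82, edgeR adjusted p = 0.000689). It depended on the library at 0: without control high replicate 2 it was -3.28, and row 2 (-4.15) then fell further. Without control high replicate 1 only that library is left, and the fitted -9.21 depends on the prior count. In mutant samples it had 3.46, 10.8, 4.56 and 4.14 CPM in low and 0.870 and 1.48 CPM in high cells, and fell by 2.28 on the log2 scale (SE 0.64, edgeR adjusted p = 0.0135). The groups did not overlap in either genotype. In mutant high cells row 10 held 9 and 12 fragments, and it did not pass the filter when only the high groups were fitted. It entered through the low libraries, where it is high, so its p-values carry the limit given above. The mutant call was lost without either mutant high library and with each deposited row as its own feature (adjusted p up to 0.136).

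Row 2 (uc007prd.1), of H2B coding length, had 6.43, 6.52, 10.6 and 8.13 CPM in control low and 0.416 and 0.567 CPM in control high cells, where it rested on 2 fragments in each library. Its log2 fold change was -4.00 (SE 0.55, edgeR adjusted p = 2.99e-05). In mutant samples the levels were 5.89, 11.4, 8.00 and 11.0 CPM in low and 1.74 and 2.22 CPM in high cells, and the log2 fold change was -2.19 (SE 0.40, edgeR adjusted p = 0.000781). Row 1, of the same span, had log2 fold changes of -2.79 (SE 0.55) in control and -3.62 (SE 0.54) in mutant cells (edgeR adjusted p = 0.000715 and 0.000144). The control value was -4.63 with control high replicate 1 left out and -2.07 with replicate 2 left out.

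Row 4 was the steadiest row in control low cells, at 7.60, 7.47, 7.46 and 7.39 CPM. The control high libraries had 2.29 and 1.13 CPM, and the row stood at 9.24, 9.45, 4.89 and 7.47 CPM in mutant low and at 2.13 and 1.11 CPM in mutant high cells. High and low libraries were separate in each genotype, and the log2 fold changes were -2.08 (SE 0.45) and -2.23 (SE 0.42), with edgeR adjusted p of 0.00140 and 0.000937. Row 12 changed by -2.99 and -3.17 on the log2 scale (edgeR adjusted p = 0.00823 and 0.00563). Rows 1 and 12 had under 10 fragments in each high library and entered through the low ones, where they are high, so their p-values carry the limit given above. The control call at row 12 was lost without either control high library (highest adjusted p 0.0787), and the mutant call without mutant high replicate 1 (0.0756).

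Row 6 had 28.0, 23.9, 10.6 and 8.62 CPM in control low and 2.70 and 0.851 CPM in control high cells. In mutant samples it had 7.97, 25.1, 8.22 and 5.60 CPM in low and 1.45 and 2.22 CPM in high cells. All 8 low libraries lay above the 4 high ones. High against low, its log2 values were -3.25 in control (SE 0.81, edgeR adjusted p = 0.00430) and -2.67 in mutant cells (SE 0.74, edgeR adjusted p = 0.0150). The control call was lost without control high replicate 2 (adjusted p = 0.0646) and the mutant call without either mutant high library or with each deposited row as its own feature (up to 0.140).

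Row 8 is the one measured row that shares its locus with other rows, 2 long ones on the same strand that held few fragments, and its test is on the sum. It stood at 74.1, 38.6, 19.3 and 26.0 CPM in control low and 9.35 and 18.7 CPM in control high cells. Mutant low cells had 64.5, 37.6, 55.3 and 23.1 CPM and mutant high cells 12.9 and 3.94 CPM. The control groups nearly touched while the mutant groups were apart. The log2 fold change was -1.49 in control (SE 0.62, edgeR adjusted p = 0.0591, not called) and -2.37 in mutant cells (SE 0.64, edgeR adjusted p = 0.0128). DESeq2 called the control difference too (log2 fold change -1.39, adjusted p = 0.0304), and the mutant call was lost without mutant high replicate 2 (adjusted p = 0.123) and with each deposited row as its own feature (0.0595).

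Row 9 was the exception. It had 10.3, 17.1, 29.2 and 24.1 CPM in control low and 39.1 and 40.3 CPM in control high cells, so every control high library was above every control low one. Mutant low cells stood at 19.97, 11.3, 6.67 and 15.1 CPM and mutant high cells at 25.6 and 8.00 CPM, and these overlapped. The log2 fold change, high against low, was 0.97 in control (SE 0.48, edgeR adjusted p = 0.106) and 0.35 in mutant cells (SE 0.49, edgeR adjusted p = 0.631), neither of them called. The direction in mutant cells turned on 1 library: it was -0.75 without mutant high replicate 1 and 0.94 without replicate 2. Fitted with only the 2 control groups, row 9 was called higher in high cells (log2 fold change 1.03, adjusted p = 0.0361). The other measured rows all had negative log2 fold changes in both genotypes, which row 9 did not share. Those with few fragments in the high libraries entered through the low ones, so their sign carries the filter limit given above. Rows 8 and 11 had at least 10 fragments in each high library, as row 9 did, and were negative in both genotypes.

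**Figure D2:**
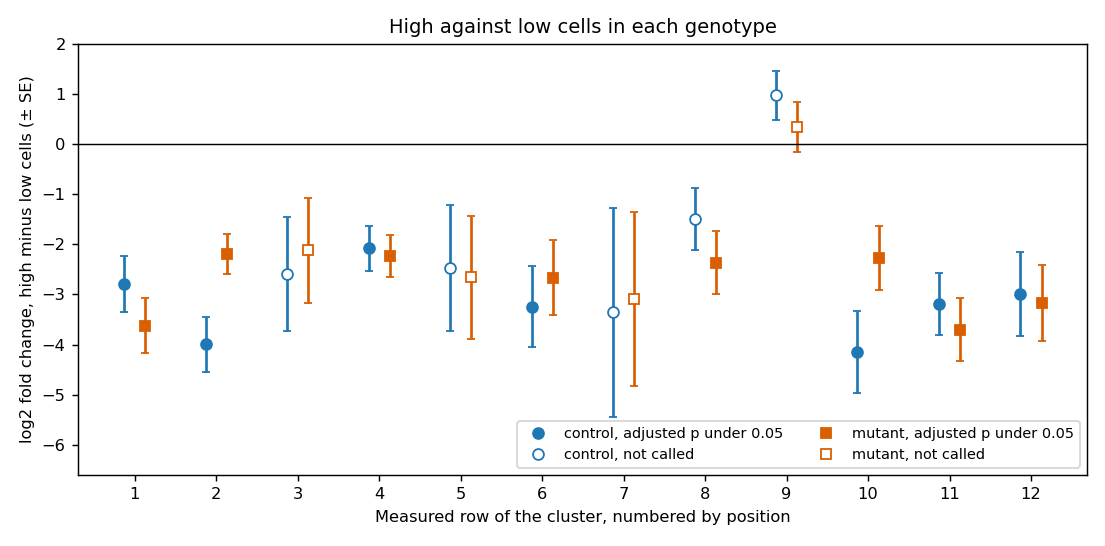
Log2 fold change of high against low cells (vertical axis, bars show the SE) at each measured row, with circles for control and squares for mutant samples and filled symbols where the edgeR adjusted p is under 0.05. Row 9 alone lies above 0, and the other 11 rows lie between -1.49 and -4.15 in control cells. Rows that entered through their fragments in low libraries had to be higher there.

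Within low cells, the summed level and some of the histone rows also differed by the number in the sample description, which the labels do not explain. Low libraries numbered 4 to 7 had 1.71 times the summed level of those numbered 8 to 11 in control samples (302 and 176 CPM) and 1.94 times in mutant samples (309 and 159 CPM). The same split separated these low libraries by depth. Those numbered 4 to 7 held 5948488 to 8092510 fragments and those numbered 8 to 11 held 8580551 to 12365078. Their shares on the mitochondrial chromosome were also apart, at 1.29% to 1.96% against 0.494% to 1.17%. Whether depth or this share bears on the histone rows was not tested. Row 3 showed the difference by number plainly. It stood at 25.1 and 21.7 CPM in the control low libraries numbered 4 and 6 and at 3.89 and 3.86 CPM in those numbered 8 and 10. In mutant low cells it stood at 16.4 and 20.9 CPM at numbers 5 and 7 and at 3.44 and 3.33 CPM at numbers 9 and 11.

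Rows 3, 6 and 7 were at least 2-fold higher in the lower-numbered low libraries of both genotypes, 3 of the 12 measured rows against 4.63% of all loci tested. Row 7 was measured only through those 4 libraries, with 17, 27, 13 and 14 fragments, so it had to be higher there. The count of rows is therefore a description and supports no difference. At row 7 the means were 2.83 and 0.0951 CPM in control and 1.82 and 0.344 CPM in mutant samples. Row 5 had 22.9, 11.3, 2.38 and 1.31 CPM in control low and 6.47, 11.6, 7.78 and 1.30 CPM in mutant low cells, a ratio of 9.27 in control and 1.99 in mutant samples. Rows 1, 2 and 4, all in the first stretch, were among the 5 rows under 2-fold in both genotypes. In control low cells rows 1, 2 and 9 went the other way, with ratios of 0.818, 0.692 and 0.514. Row 9 averaged 13.7 CPM in the lower-numbered and 26.7 CPM in the higher-numbered control libraries, and its ratio in mutant samples was 1.44. This difference was not tested, since the numbers name no batch in the labels.

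**Figure D3:**
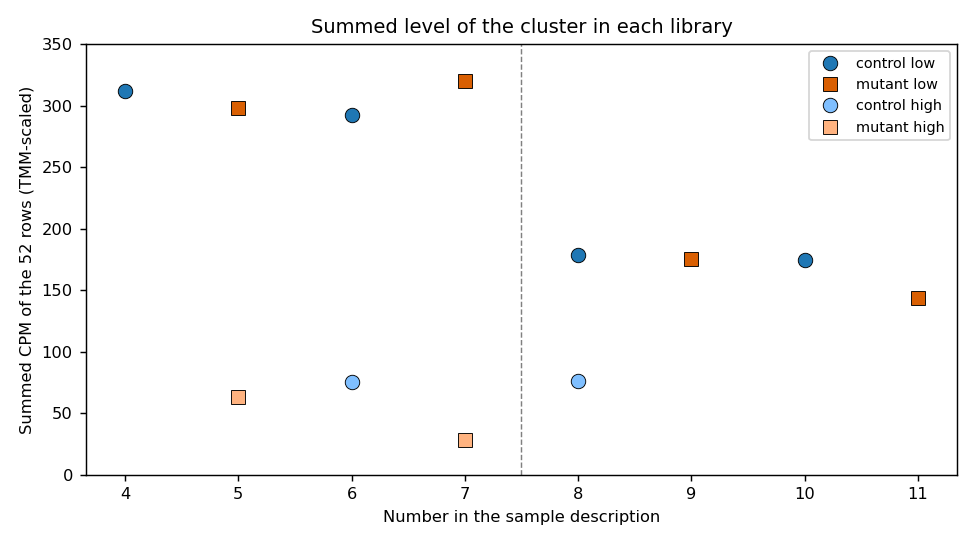
Summed CPM of the 52 rows in each library against the number in its sample description, with circles for control and squares for mutant, dark for low and pale for high cells; the dashed line separates numbers up to 7 from those above. The 4 low libraries left of the line lie between 292 and 320 CPM, the 4 to its right between 144 and 178 CPM, and all high libraries at 76.0 CPM or less.

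The numbers bear on the comparison of high with low cells, because all high libraries are numbered 5 to 8. With the 8 libraries whose number occurs in both populations, 9 rows were lower in control high and 10 in mutant high cells. Of all 13374 loci tested there, 3362 were lower in control high and 1172 in mutant high cells. These counts of rows carry the filter limit given above. Rows 3 and 5 were then called in both genotypes. Row 5 held 8, 6, 8 and 11 fragments in the high libraries, so its calls carry that limit too. Row 3 had 2.70 and 1.70 CPM in the control high libraries and 2.42 and 2.58 CPM in the mutant high ones. Its log2 fold change was -2.49 in control (edgeR adjusted p = 0.0219) and -2.89 in mutant cells (edgeR adjusted p = 0.0151). With all 12 libraries it had been -2.59 (SE 1.14, edgeR adjusted p = 0.0789) and -2.12 (SE 1.05, edgeR adjusted p = 0.148). Row 5 had 1.66 and 1.70 CPM in the control high libraries and 0.773 and 1.35 CPM in the mutant high ones, and its log2 fold changes were -1.995 and -3.08 in the 8 libraries (edgeR adjusted p = 0.0499 and 0.0118). With 12 libraries these were -2.47 and -2.66 (edgeR adjusted p = 0.124 and 0.123). Numbers 5 to 8 are each carried by a high and a low library of the same genotype, and the labels do not say whether these are pairs. A fit of the 8 libraries with a block for each number was added after the data were seen. In it 9 rows in control and 10 in mutant cells were lower in high cells, against 3358 and 1305 of 13374 loci. These counts of rows carry the filter limit too.

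Mutant against control was asked within each population. In low cells no row of the cluster was called by edgeR, none had an unadjusted p under 0.05, and DESeq2 called none, while 8.03% of all loci were called. Control low libraries summed to 239 ± 73.1 CPM and mutant low libraries to 234 ± 87.7 CPM (SD, n = 4 each). Log2 fold changes of the 12 measured rows ran from -0.61 to 0.19 with a median of -0.19, where all loci had a median of -0.06. At row 11 the change was 0.15 (SE 0.41, edgeR adjusted p = 0.876), or -0.08 without mutant low replicate 2, and at row 4 it was 0.05 (SE 0.29, edgeR adjusted p = 0.950). Row 6 had the most negative value, -0.61 (SE 0.50, edgeR adjusted p = 0.549). Without mutant low replicate 2, which was far above the other mutant low libraries at rows 6 and 10, row 6 was at -1.29 (edgeR adjusted p = 0.0902) and row 10 at -1.07 (0.135). In that fit 2 rows had an unadjusted p under 0.05 and none was called. Within the low libraries numbered up to 7, and within those above 7, no row was called either, with 1 row under an unadjusted p of 0.05 in each set. Of all loci, 299 of 13345 were called higher and 198 lower in the first set. In the second, 466 of 13582 were called higher and 279 lower.

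In high cells 16.3% of all loci were called higher in mutant samples, and 1541 of 13749 lower. In the cluster no row was called lower and 1 was called higher, row 2. Its levels of 1.74 and 2.22 CPM in mutant high cells lay above the 0.416 and 0.567 CPM of control high cells, from 36 fragments in mutant and 4 in control libraries. The log2 fold change was 2.00 (SE 0.63, edgeR adjusted p = 0.0297). This call was lost with DESeq2 (adjusted p = 0.0680), with only the high groups in the fit (0.0690), in the 8 libraries that share a number (0.0558), and without either control high library or mutant high replicate 2 (up to 0.159). Over the whole cluster, control high libraries summed to 75.7 ± 0.339 CPM and mutant high libraries to 45.7 ± 24.2 CPM (SD, n = 2 each), and mutant high replicate 1, at 62.8 CPM, was close to the control libraries.

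At row 9 the mutant high value was lower by a difference that was not called (log2 fold change -1.23, SE 0.58, edgeR adjusted p = 0.131). It rested on the second mutant high library: without mutant high replicate 1 the change was -2.30 (edgeR adjusted p = 0.0318), and without mutant high replicate 2 it was -0.61 (0.549). At row 11 the change was -0.36 (SE 0.64, edgeR adjusted p = 0.709), and its direction turned on 1 library. It was -1.81 without mutant high replicate 1 (edgeR adjusted p = 0.0868) and 0.34 without mutant high replicate 2 (0.750). The 12 measured rows had a median log2 fold change of -0.21 in high cells.

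**Figure D4:**
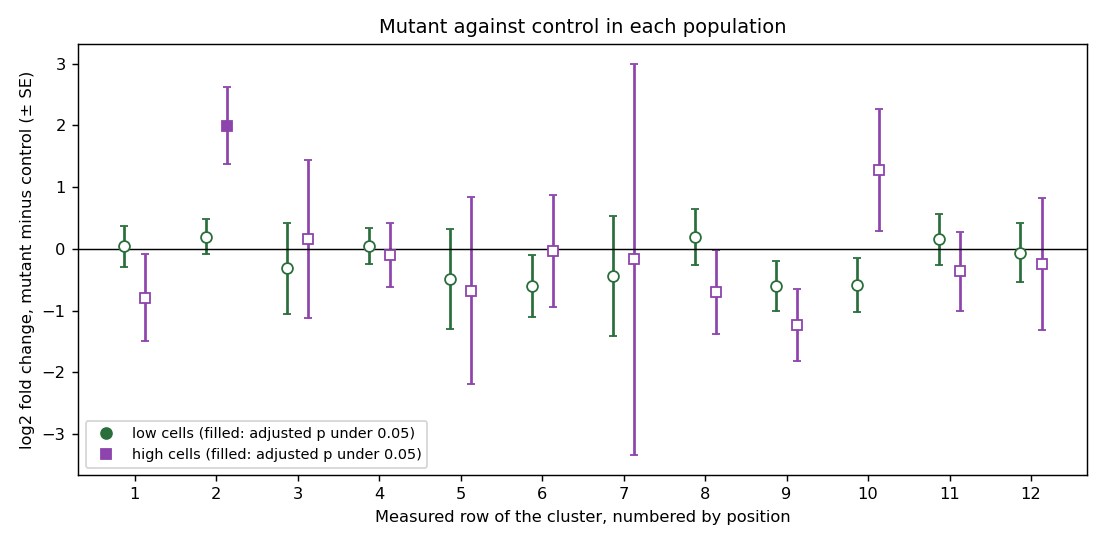
Log2 fold change of mutant against control (vertical axis, bars show the SE) at each measured row, with circles for low and squares for high cells and filled symbols where the edgeR adjusted p is under 0.05. Low-cell values lie between -0.61 and 0.19, and row 2 in high cells, at 2.00, is the single filled symbol.

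The mutant effect was not found to differ between high and low cells at any row of the cluster, where 10.3% of all loci were called by the interaction test. Row 2 was the only row with an unadjusted p under 0.05 in edgeR (difference of effects 1.80 on the log2 scale, SE 0.70, adjusted p = 0.117), and with DESeq2 no row had one. The fit's errors at these rows are wide. At row 11 the difference of effects was -0.52 (SE 0.76) and at row 8 it was -0.88 (SE 0.82).

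Some neighbouring rows of the cluster were unequal. The rule left 8 pairs in which a minus-strand row lies within 1000 bases before a plus-strand row, a head-to-head layout known for H2A and H2B genes. In 2 pairs 1 row was measured, in 6 neither, and in none both. Row 1 had 566 fragments over the 12 libraries, and its partner, 278 bases away, had 2. Row 6 had 1044 fragments and its partner, 179 bases away, had 39. The row at 21845303 to 21845696 had 117 and its partner 2. In the remaining pairs no row held more than 23 fragments over the 12 libraries, too few to compare. The split between near-identical copies is uncertain for these rows too.

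Across the 12 libraries, the measured rows other than row 9 followed row 11 with Pearson's r of 0.68 to 0.97 on log2(CPM + 1), and row 9 had -0.21. These correlations share the high and low split and the libraries' depth. Over the 8 low libraries alone they ran from -0.39 at row 2 to 0.90 at row 3. Outside the cluster, the 3 loci most like row 11 over the 12 libraries were on chromosome 11 from 68799202 to 68821962 (r = 0.983), chromosome 19 from 10969781 to 10980021 (r = 0.978) and chromosome 5 from 110688153 to 110698918 (r = 0.955). The chromosome 11 locus stood at a mean of 82.3 CPM in control low, 88.2 in mutant low, 30.7 in control high and 23.7 CPM for mutant high libraries, the same order of low above high cells as row 11.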

How the data were processed

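Values in the deposited table are estimated counts, not normalized, for each UCSC transcript in each sample, and the deposited file is named for raw fragments and CuffDiff2. Bowtie2, HTSeq, DESeq2 and the build mm9 are named without roles per the submitters' processing notes. Per the labels' protocols, 10 ng of RNA entered the SMART-Seq kit. Strand use is not given in the sources used here.

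Transcripts overlapping on a strand were summed to 26699 loci and rounded to whole counts, and 13749 loci passed filterByExpr. All 12 samples entered 1 fit of 4 groups with edgeR 4.0.16 (TMM, robust quasi-likelihood F test) in R 4.3.3, with Benjamini-Hochberg adjustment over all loci and a two-sided threshold of 0.05. Each SE given with an edgeR value is the absolute log2 fold change divided by the square root of its F value, and no separate standard error was estimated. The script was tested on simulated data. Alternatives were DESeq2 1.42.0, RLE factors, other filters, single rows as features, left-out libraries, blocks and subsets by description number. Depth per library is given in the report.

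Rows given in every library are the 8 measured rows of highest mean level and the largest called change per comparison and direction. Members and lists were chosen with earlier results of these data known.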

Additional observations from a re-analysis of the deposited data

Results flagged for a closer look

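In 2 of 26 sets of 4 low libraries examined (12 measured rows and their sum, in control low and in mutant low cells), 1 library lay far from the other three by Dixon's criterion, and chance gives about 1 in 20. Both were mutant low replicate 2. Row 6 stood at 25.1 CPM there, against 5.60 to 8.22 CPM in the other mutant low libraries. Row 10 stood at 10.8 CPM, against 3.46 to 4.56 CPM. The level of row 6 in that library was within the range of control low cells, 8.62 to 28.0 CPM, and so was that of row 10, at 5.66 to 11.6 CPM.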

How the results depend on the processing

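Counts of cluster rows called in low cells (0) and by the interaction test (0) were the same in every alternative run. In high cells, the 1 row called became 0 with DESeq2, with only the groups compared and with the 8 libraries that share a number, and ran from 0 to 2 when single libraries were left out. With DESeq2, 2199 of 13749 loci were called higher in mutant high cells, and with only the groups compared 2056 of 12562. In the 8 libraries 2295 of 13374 were. High against low, 8 rows in mutant cells became 5 with single rows as features and 10 with DESeq2, and stayed 8 without any single low library. With single rows as features, 857 of all 21343 were lower in mutant high cells. The 7 rows in control cells became 10 with DESeq2 and 7 to 9 without single low libraries. With DESeq2, 2065 of all 13749 loci were lower in mutant high and 3531 in control high cells. Without single low libraries, 1374 to 1901 loci were lower in mutant high and 3364 to 3643 in control high cells. Both counts of rows fell when a high library was left out, and so did the counts over all loci. Title replicate numbers were not taken as pairs, since only control low replicate 4 correlated best with the mutant low library of its own number. The 4 correlations of same-numbered low libraries were 0.103, 0.339, 0.085 and 0.525. A replicate block on them gave 12 rows in control (7 without) and 11 in mutant cells. In that fit 3579 of all 13749 loci were lower in control high and 1565 in mutant high cells. The 12 include the fitted row outside the measured set, because row 9 was not called (log2 fold change 1.09, edgeR adjusted p = 0.153). The summed level in control high cells, 75.7 CPM, was 79.2 with RLE scaling, 58.5 on plain totals and 74.2 over measured rows. RLE moved the median of all loci in the control comparison of high with low cells by 0.10 on the log2 scale. Of 966 refitted fold changes at measured rows, none called in either fit changed sign, and 67 called in neither did. Of 16 called results, 9 kept their call in all alternatives. Causes were not tested. A fit left with 1 high library assumes that it varies like the other groups. Depth limits the high cells, with as few as 2 fragments a library at row 2.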

Other observations

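Longer loci lie among the histone rows, and 4 of those outside the span limit were tested. One, from 22094044 to 22101610 on the minus strand of the first stretch, averaged 0.187 ± 0.175 CPM over the control low libraries and 10.9 ± 3.76 CPM over the mutant low ones (SD, n = 4 each). It held 0 to 3 fragments in a control low library and 47 to 194 in a mutant low one, and the log2 difference was 5.93 (SE 0.61, edgeR adjusted p = 3.63e-05). Its control high mean was 1.95 ± 1.95 CPM and its mutant high mean 9.69 ± 0.647 CPM (SD, n = 2 each; log2 fold change 2.23, edgeR adjusted p = 0.0251), and the effects differed by the interaction test (adjusted p = 0.0252). It was singled out after its values were seen. In low cells the other tested loci among the histone rows were not called for mutant against control.

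The locus from 23776067 to 23784349 in the second stretch had the opposite order to the histone rows in control kidneys, with 33.4 ± 21.3 CPM in low (SD, n = 4) and 260 ± 50.7 CPM in high cells (SD, n = 2; log2 fold change 2.97, edgeR adjusted p = 0.00561). In mutant samples it had 28.3 ± 24.4 CPM in low and 40.1 ± 13.6 CPM in high cells (edgeR adjusted p = 0.646). It too was chosen after its values were seen.

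The remaining tested loci moved in opposite directions between the populations. The locus from 22036962 to 22052354 was lower in high than in low cells, with log2 fold changes of -3.12 in control and -1.37 in mutant samples (edgeR adjusted p = 0.00014 and 0.0207), and was higher in mutant than in control high cells (1.88, adjusted p = 0.0193). The locus from 23795709 to 23802680 was higher in high cells, by 2.43 and 2.52 on the log2 scale (edgeR adjusted p = 0.0102 and 0.0222), from 13 or fewer fragments in each library.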
